A study of Mus musculus with 18 samples.

Results

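CD8 T cells from the spleens of mice labelled Ebi3-/- were compared with CD8 T cells of mice that carry Ebi3, 3 libraries against 3, across all genes. These 6 libraries are the CD8 part of a series of 18 libraries, and they were taken by their labels alone. Both groups carry the Foxp3 YFP/cre allele. In that allele YFP and Cre are placed in the gene of the transcription factor that marks regulatory T cells. The libraries of the strain Foxp3 YFP/cre are called WT here, and those of Foxp3 YFP/cre Ebi3-/- are called KO. Cells were stained, sorted as CD8+ and then cultured for 72 h. The culture held anti-CD3 fixed to the plate and anti-CD28, each at 2 µg/ml, and IL-2 at 10 ng/ml. Sorting came before the culture, and 500 ng of total RNA per library was made into 3′ tag libraries with unique molecular identifiers. The labels give neither the age nor the sex of the mice. They do not say whether replicates were separate animals or cultures, and the p-values given here therefore cover nothing beyond the spread among these libraries, which may be technical.

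Ebi3 encodes a secreted protein that has no membrane anchor and pairs with a second chain. With p28 (Il27) it forms IL-27, which signals through Il27ra and the shared receptor chain gp130 (Il6st). With p35 (Il12a) it forms IL-35. Antigen-presenting cells are the usual source of IL-27, and regulatory T and B cells are described as sources of IL-35. In CD8 T cells IL-27 is known as a signal that shapes proliferation, cytotoxic genes and inhibitory receptors. CD8 T cells activated through CD3 and CD28 enter the cell cycle, increase ribosome production and turn up glycolysis and sterol synthesis.

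Total counts ran from 1819035 to 2077358 over the 6 libraries, so 3 counts in a library equal 1.44 to 1.63 normalised read counts (CPM). CPM here is taken on the library size after TMM scaling, and intervals cover counting error only. The identity of the cells was read from Cd8a, Cd8b1, Cd3e, Trac and Cd4. Cd8a, a chain of the CD8 coreceptor, stood at 244, 219 and 168 CPM in WT and at 160, 181 and 143 CPM in KO. Cd8b1, the other chain, stood at 182, 192 and 129 CPM in WT and at 128, 150 and 137 CPM in KO. In both genes WT replicates 1 and 2 were the highest libraries and the groups overlapped. Cd3e and Trac were counted in every library, Cd4 had 0 or 1 count per library and Foxp3 had 1 count in all 6. Replicates of CD8 differed by more than counting noise, with a chi-square per degree of freedom of 1.502 to 3.44. In the rest of the fit, 2 pairs of libraries labelled Treg differed by less than counting noise (0.923 and 0.914).

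Ebi3 itself was counted at the same level under both labels. It stood at 29.1, 28 and 29.7 CPM in WT and at 27.6, 24.2 and 34.0 CPM in KO, from 47 to 71 counts per library. The groups overlapped, and KO replicate 3 was the highest of the 6. The log2 fold change, KO minus WT, was -0.01 (SE 0.19, adjusted p = 1 by edgeR). The same fit gave -0.98 for Ebi3 in CD4 cells, and the difference between both effects was 0.97 (SE 0.27, adjusted p = 0.083 by edgeR). A 3′ tag reads the end of the transcript, and the labels do not say which part of Ebi3 is deleted. A tag outside the deleted part would not check the genotype, so WT and KO below mean the libraries so labelled.

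Hemoglobin transcripts belong to red cell precursors and not to T cells, and they were counted in every CD8 library. The summed level of Hba-a1, Hba-a2, Hbb-bs and Hbb-bt was 625, 705 and 1041 CPM in WT and 1071, 981 and 1466 CPM in KO. KO replicate 3 was the highest, WT replicates 1 and 2 were the lowest, and WT replicate 3 lay between KO replicates 2 and 1. The means were 790 ± 221 and 1173 ± 258 CPM (SD, n = 3 each), a ratio of 1.48, and the groups overlapped in this sum. By gene, the groups lay apart for Hba-a1 and Hba-a2 and overlapped for Hbb-bs and Hbb-bt. A two-sided exact permutation test gave p = 0.2, where 3 against 3 cannot go below 0.1. The log2 difference was 0.58, and it was 0.57 on CPM of the total count. The first principal component of the 6 libraries carried 42.6% of the variance and placed them in nearly the same order. Its scores were -24.4, -27.4 and 4.30 in WT and 9.68, 5.15 and 32.6 in KO, so WT replicate 3 lay beside KO replicate 2 and not beside its own group.

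**Figure D1:**
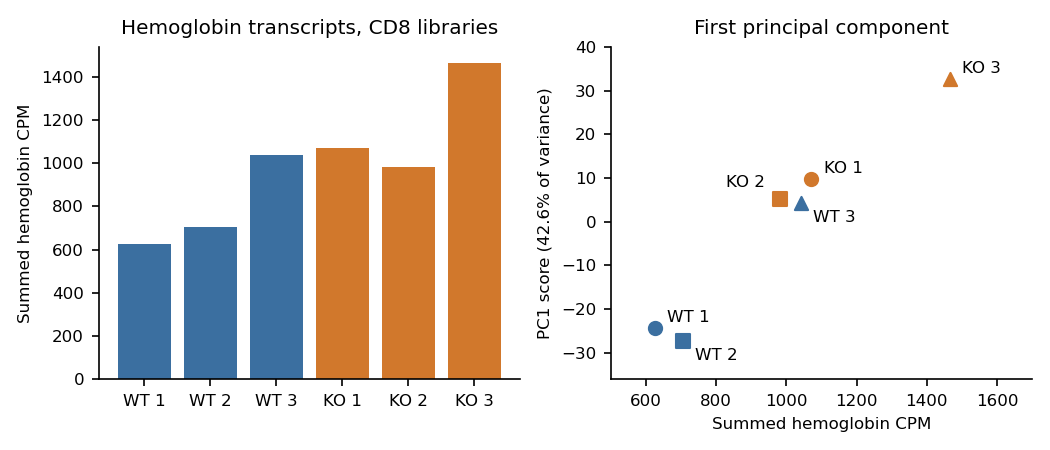
Left, summed CPM of the 4 hemoglobin genes in each CD8 library, as bars from 0. Right, the score of each library on the first principal component of log2 CPM against its hemoglobin CPM; WT replicate 3 (1041 CPM) lies with KO replicates 1 and 2, and KO replicate 3 (1466 CPM) lies farthest from WT replicates 1 and 2.

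Across the transcriptome the differences were small. Of 12693 genes tested, 84.2% had a log2 fold change within 0.5 of 0, and 314 had no count in any CD8 library. Among 8051 genes whose mean log2 CPM was at least 4, 197 were more than 1.5-fold higher in KO and 92 more than 1.5-fold lower, and 7 and 2 passed 2-fold. At an adjusted p under 0.05 (edgeR quasi-likelihood test on the 6 group means of all 18 libraries, Benjamini-Hochberg), 21 genes or 0.165% differed, 7 higher and 14 lower. At an unadjusted p under 0.05 it was 2071 genes or 16.3%. All 3 KO libraries lay above all 3 WT libraries in 1164 genes (9.17%) and below them in 1040 (8.19%). The fit shares 1 estimate of the spread among all cell types. The count was 0 with the 6 CD8 libraries alone and 0 with the 12 CD8 and CD4 libraries by edgeR (1761 and 1689 at an unadjusted p under 0.05), and 1 (Bola1) with the 2 alike Treg pairs each summed to 1 sample. With RLE scaling it was 35, of which 8 were higher and 27 lower. Leaving out 1 CD8 library at a time gave 8, 0 and 646 calls without WT replicates 1, 2 and 3, and 48, 61 and 0 without KO replicates 1, 2 and 3.

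The gene with the lowest p was Bola1, whose product is a mitochondrial BolA protein that takes part in the handling of iron-sulfur clusters. Bola1 was counted at 50.2, 62.6 and 43.0 CPM in WT and at 26.5, 30.4 and 23.0 CPM in KO. Every KO library was below every WT library, and WT replicate 3 was the WT library nearest to KO. The means were 51.9 ± 9.92 and 26.6 ± 3.70 CPM (SD, n = 3 each), a ratio of 0.513. Its log2 fold change was -0.96 (SE 0.17, adjusted p = 0.017 by edgeR). Hemoglobin in these libraries was 625, 705 and 1041 CPM in WT and 1071, 981 and 1466 CPM in KO. With the log2 hemoglobin level as a covariate the change of Bola1 was -0.80. Here and below that fit took a common hemoglobin slope per gene over all 18 libraries, those labelled CD4 and Treg included. The gene lies on the minus strand of chromosome 3 from 96196588 to 96219709 (GRCm38). Gm15444, annotated as an antisense gene, overlaps Bola1 on the same strand and runs past its annotated start, and it had 1 count in WT and 2 in KO.

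Snrpd3, which encodes the core spliceosomal protein SmD3, fell with the next smallest p. It stood at 331, 447 and 369 CPM in WT and at 264, 277 and 201 CPM in KO, with WT replicate 2 highest, KO replicate 3 lowest and no overlap. The log2 fold change was -0.63 (SE 0.11, adjusted p = 0.017 by edgeR). The gene lies on the plus strand of chromosome 10 from 75517551 to 75537381, and Gucd1 overlaps its start on the other strand with 154 counts in WT and 230 in KO. Rps27, a protein of the small ribosomal subunit, was the ribosomal protein gene that rose. It was counted at 1139, 994 and 1280 CPM in WT and at 1477, 1423 and 1793 CPM in KO, and again the groups lay apart. The log2 fold change of Rps27 was 0.46 (SE 0.10, adjusted p = 0.048 by edgeR). The hemoglobin values behind both changes are those given for Bola1, and as a covariate they left -0.54 for Snrpd3 and 0.25 for Rps27.

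The other genes that fell belong to several functions. In DNA replication and repair they were Rpa2, a subunit of the single-strand binding protein RPA, and Swi5, a protein of homologous recombination. Rpa2 stood at 182, 210 and 157 CPM in WT and at 118, 132 and 122 CPM in KO, a ratio of 0.676 (adjusted p = 0.032 by edgeR). Swi5 stood at 207, 231 and 196 CPM against 153, 152 and 123 CPM, a ratio of 0.675 (adjusted p = 0.045). In both genes the groups lay apart. Hemoglobin in these libraries, where the groups overlapped, was 625, 705 and 1041 CPM in WT and 1071, 981 and 1466 CPM in KO. Golga2 overlaps Swi5 on the other strand with 566 counts in WT and 558 in KO. Whether the counting used strand is not given in the sources used here, so overlapping genes are uncertain.

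Among genes of RNA export and processing, Alyref, which hands spliced messenger RNA to the nuclear export receptor, stood at 132, 183 and 134 CPM in WT and at 105, 113 and 74.7 CPM in KO. Its ratio was 0.649 (adjusted p = 0.042 by edgeR). Frg1, a nuclear protein linked to splicing, had a ratio of 0.668 (adjusted p = 0.034). Snhg15, a noncoding host gene of a small nucleolar RNA, stood at 65.2, 74.9 and 55.9 CPM against 42.3, 39.1 and 39.8 CPM (ratio 0.618, adjusted p = 0.049). Its guest Snora9, on the same strand, had 107 counts in WT and 52 in KO. The predicted small nuclear RNA gene Gm22063, inside Cbfb, was counted at 5.52, 9.67 and 4.45 CPM in WT and at 1.08, 2.06 and 0.958 CPM in KO, where the KO values are near the floor of 3 counts. WT replicate 2 was the highest library in each of Alyref, Frg1, Snhg15 and Gm22063, and it held 705 CPM of hemoglobin.

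Of the mitochondrial genes, Tsfm, the elongation factor of mitochondrial translation, stood at 53.7, 66.7 and 46.0 CPM in WT and at 35.8, 34.5 and 26.8 CPM in KO (ratio 0.584, adjusted p = 0.034 by edgeR). Coq7, a hydroxylase of ubiquinone synthesis, stood at 70.3, 82.5 and 64.8 CPM against 46.1, 49.97 and 43.1 CPM (ratio 0.640, adjusted p = 0.049). Both were lower in every KO library. Jund and Mpdu1 also fell. Jund, an AP-1 transcription factor, stood at 420, 601 and 455 CPM in WT and at 359, 336 and 293 CPM in KO (ratio 0.669, adjusted p = 0.033). Mpdu1, needed for the use of dolichol-linked mannose, had a ratio of 0.638 (adjusted p = 0.034). With hemoglobin (625, 705 and 1041 CPM in WT, 1071, 981 and 1466 in KO) as a covariate the log2 fold changes were -0.52 for Tsfm, -0.42 for Coq7 and -0.48 for Jund, against -0.78, -0.64 and -0.58 without it.

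Among the 7 genes that rose, Fth1, the heavy chain of the iron store ferritin, was counted at 329, 339 and 444 CPM in WT and at 523, 487 and 632 CPM in KO. Its groups lay apart, and its order over the libraries was close to that of hemoglobin, with WT replicate 3 highest in WT and KO replicate 3 highest in KO. The log2 fold change was 0.56 (SE 0.12, adjusted p = 0.047 by edgeR), and 0.22 with the hemoglobin covariate, the smallest share kept by any of the 21 (0.39). Hectd3, a ubiquitin ligase, stood at 22.6, 20.4 and 16.8 CPM in WT and at 37.4, 30.9 and 37.4 CPM in KO. Its log2 fold change was 0.82 (SE 0.17, adjusted p = 0.042 by edgeR) and 0.79 with the covariate, and here WT replicate 3 was the lowest library. Bicd1, a dynein adaptor, had 0, 0 and 3 counts in WT and 11, 8 and 8 in KO, a ratio of 9.16 with an exact 95% counting interval of 2.82 to 47.2. Rps15a-ps1 and Gm15500 are annotated as processed pseudogenes, whose reads can be split with their parent genes, and Gm37124 is a predicted gene of unconfirmed status. Gm15500 was counted at 127, 99.8 and 143 CPM in WT and at 162, 186 and 227 CPM in KO. In Rps15a-ps1 (1.02 to 5.44 CPM in WT, 9.21 to 12.9 in KO) WT replicate 2 was the lowest library.

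Promoter windows, the 250 bases before a gene's annotated start, were taken from RefSeq (GRCm38.p6), which gave one for 14 of the 21 genes. For 7 of the 14 the RefSeq start lay within 10 bases of the outermost start in GENCODE. For Bola1 it lay 22123 bases inside the GENCODE span and for Snrpd3 491 bases inside. The windows shown are those of genes that passed the test, whose starts lie within 10 bases of each other in both annotations and which hold fewer than 10 bases of any annotated exon. A gene can have other starts further in. They are written 5′ to 3′ on the strand of the gene, with motif matches in capitals. Coq7 has the window chr7:118533357-118533606 on the minus strand, Snhg15 chr11:6528761-6529010 on the minus strand, Mpdu1 chr11:69662650-69662899 on the minus strand and Fth1 chr19:9980350-9980599 on the plus strand.
Coq7: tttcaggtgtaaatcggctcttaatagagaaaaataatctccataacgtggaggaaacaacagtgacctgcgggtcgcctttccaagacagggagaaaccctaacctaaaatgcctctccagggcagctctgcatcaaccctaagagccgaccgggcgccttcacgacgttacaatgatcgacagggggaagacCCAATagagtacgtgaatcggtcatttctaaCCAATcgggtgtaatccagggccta
Snhg15: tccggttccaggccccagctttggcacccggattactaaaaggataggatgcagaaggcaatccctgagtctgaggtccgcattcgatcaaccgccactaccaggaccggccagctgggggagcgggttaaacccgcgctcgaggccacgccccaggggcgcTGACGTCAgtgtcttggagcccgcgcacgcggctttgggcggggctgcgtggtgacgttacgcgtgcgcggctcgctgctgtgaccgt
Mpdu1: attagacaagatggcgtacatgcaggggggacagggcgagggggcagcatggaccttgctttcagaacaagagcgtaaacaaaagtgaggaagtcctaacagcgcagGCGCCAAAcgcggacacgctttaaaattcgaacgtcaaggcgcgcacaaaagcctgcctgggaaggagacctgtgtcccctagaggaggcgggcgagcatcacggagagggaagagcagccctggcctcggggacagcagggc
Fth1: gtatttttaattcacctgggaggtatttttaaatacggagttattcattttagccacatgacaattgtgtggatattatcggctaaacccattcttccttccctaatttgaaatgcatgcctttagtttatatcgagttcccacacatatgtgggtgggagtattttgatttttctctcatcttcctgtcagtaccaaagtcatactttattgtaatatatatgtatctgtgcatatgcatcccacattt
Motifs were searched on both strands. They were TGANTCA, which AP-1 dimers of the Fos and Jun families bind, and TGACGTCA, the cyclic AMP response element (CRE). CACGTG is the E-box of MYC and related factors, and the CCAAT box is bound by NF-Y. TGATGNAA is the element of ATF4 and its partners (CARE), and TTTNNCGC is the core of E2F sites. Coq7 held 2 CCAAT matches, Snhg15 held 1 CRE match, Mpdu1 held 1 E2F match and Fth1 held no match to any of the 6. Of the 14 windows 10 belong to genes that fell and 4 to genes that rose. CCAAT was found in 6 of the 10 and in 0 of the 4, against 33.8% of 32536 promoter windows of the same length. E2F was found in 2 of the 10 and 1 of the 4 (4.31% of all windows) and CRE in 1 of the 10 (1.56%). AP-1, E-box and CARE were in none of these 14, against 6.73%, 6.04% and 3.4% of all windows. These counts take all 14 windows, of which only the 4 shown met the limits on starts and exons. The window of Snrpd3, for example, held 250 bases of annotated exon and that of Rps27 held 207. The background took every distinct window, and the called genes were given a single window each, so the shares are not like for like. A match is a description of letters and not a bound site.

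**Figure D2:**
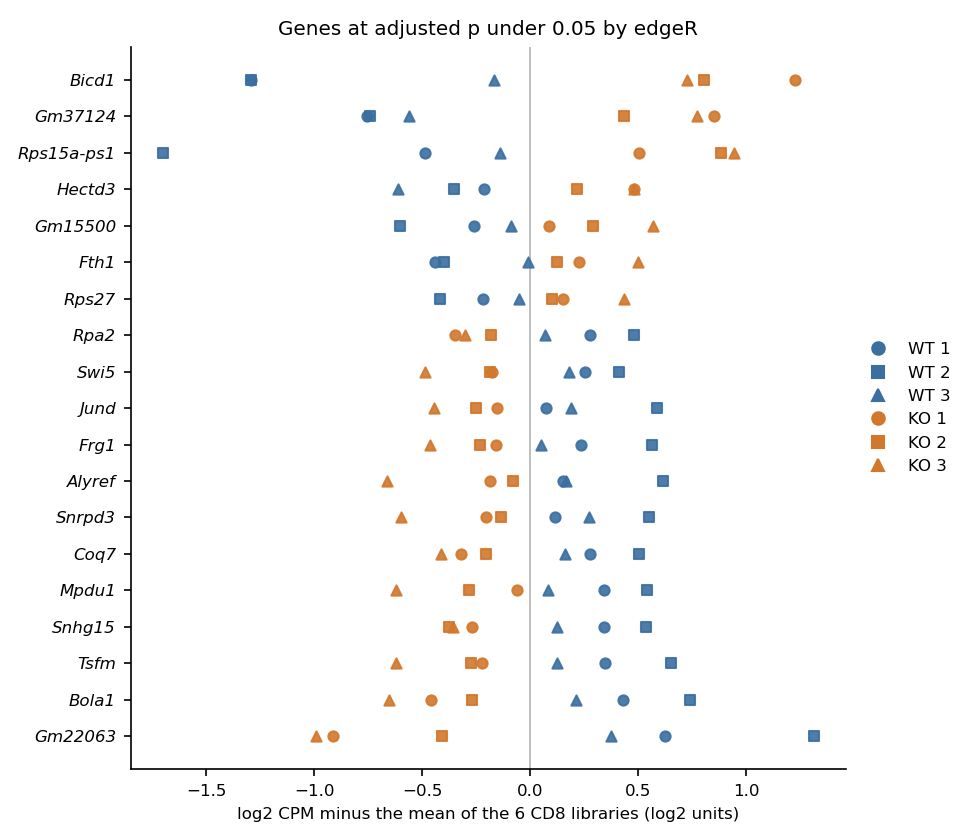
Genes past the threshold, 19 of the 21, in 1 row each, with log2 CPM of every CD8 library minus the mean of the 6 libraries; blue marks WT, orange KO, and the shape gives the replicate. In every row the groups do not overlap, which the choice of these genes by a test on the same libraries favours. WT replicate 3 is the WT library nearest to KO in 16 of all 21.

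In all 21 genes the groups lay apart, but they were chosen by a test on the same libraries, which favours such a separation. WT replicate 3 was the WT library nearest to KO in 16 of them and WT replicate 1 in 5, and KO replicate 3 lay farthest from WT in 16. The same tallies were not made over all genes. WT replicate 3 and KO replicate 3 had the most hemoglobin of their groups, at 1041 and 1466 CPM. They also had the highest scores of their groups on the first principal component, at 4.30 and 32.6. With hemoglobin as a covariate the 21 genes kept a median share of 0.83 of their log2 fold change (0.39 to 0.96), and none of them passed the threshold in that fit. Its 4 calls were Igf2r, Ltb, Nob1 and Smim26. The slope came from all cell types, so values with the covariate are not an adjustment within CD8. Hemoglobin also differed between the CD8 groups on average, so the covariate and the label cannot be fully separated, which can make the threshold harder to pass. In the fit of the 6 CD8 libraries alone, 19 of the 21 were tested, with unadjusted p from 5.7e-05 to 0.0013 and adjusted p from 0.177 to 0.178.

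The same contrast in CD4 cells, which shares no library with CD8, gave other values for these genes. The sign was opposite in 14 of the 21 and the same in 7. Several of these CD4 values were close to 0, and Bola1, at 0.0003, counts as opposite. In CD4 0 genes passed the threshold, and the share of opposite signs over all genes was not taken. The tally of signs is therefore no result about a reversal between the cell types. Bola1 had a log2 fold change of 0.00 in CD4 against -0.96 in CD8, Snrpd3 -0.07 against -0.63 and Rps27 -0.13 against 0.46. Hectd3 had 0.06 against 0.82. The test of the difference, CD8 minus CD4, called 0 of 12693 genes (0.0%) at an adjusted p under 0.05 by edgeR, with 2269 at an unadjusted p under 0.05. For the 21 genes the adjusted p of the difference ran from 0.065 to 0.221. Hemoglobin differed the other way in CD4, at 1498, 847 and 1048 CPM in WT and 746, 987 and 877 CPM in KO. Without CD8 WT replicate 3 the test of the difference called 859 genes, without CD4 WT replicate 2 it called 613, without CD4 KO replicate 2 218 and without CD8 KO replicate 2 150. It called 0 when any of the other 8 CD8 or CD4 libraries was left out, 602 with no filter on low counts and 192 with a replicate block within cell type.

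**Figure D3:**
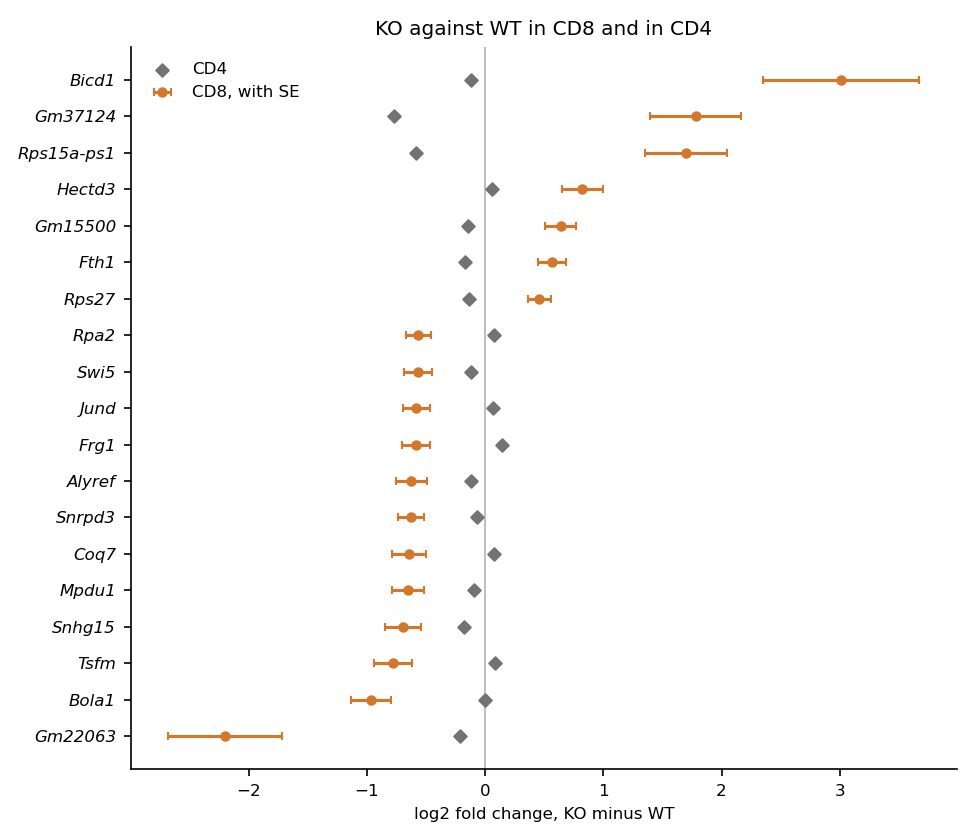
The log2 fold change, KO minus WT, of the same 19 genes in CD8 (orange, with the standard error) and in CD4 (grey). CD4 values lie between -0.77 (Gm37124) and 0.15 (Frg1), and no difference between the cell types passed an adjusted p of 0.05.

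Outside the called genes, larger differences with groups apart were seen among genes of at least 4 in mean log2 CPM, and none of the genes in this paragraph passed the test. Slc7a5, the light chain of the large neutral amino acid transporter, had the largest difference downward. It stood at 149, 83.5 and 151 CPM in WT and at 40.6, 61.8 and 56.0 CPM in KO, which is -1.27 on the log2 scale (SE 0.27, adjusted p = 0.066 by edgeR). In CD4 the value for Slc7a5 was -1.56, and with the hemoglobin covariate the CD8 value was -1.20. Bax, an effector of mitochondrial apoptosis, stood at 17.6, 33.1 and 25.2 CPM in WT and at 13.5, 10.3 and 12.9 CPM in KO (log2 -1.04, adjusted p = 0.066 by edgeR). Klrk1, which encodes the activating receptor NKG2D, stood at 45.2, 54.0 and 31.1 CPM against 19.0, 28.8 and 21.1 CPM (log2 -0.91, -0.38 with the covariate). Dapl1 stood at 331, 261 and 170 CPM against 129, 162 and 130 CPM (log2 -0.85, -0.15 with the covariate). The interferon-induced membrane protein gene Bst2 (log2 -0.91), the ubiquitin ligase gene Traip (-0.95), Tbc1d22b (-0.85) and the histone gene Hist1h2bk (-0.85) completed the named genes on this side. These values stand beside hemoglobin of 625, 705 and 1041 CPM in WT and 1071, 981 and 1466 CPM in KO.

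On the other side Pfn1, which encodes the actin-binding protein profilin, stood at 20.6, 5.6 and 23.7 CPM in WT and at 39.0, 51 and 45 CPM in KO. The log2 fold change of Pfn1 was 1.43 with a wide error (SE 0.55, adjusted p = 0.229 by edgeR), and WT replicate 2 was far below the rest. Ppp1r14b, an inhibitor of protein phosphatase 1, stood at 37.6, 21.9 and 33.6 CPM against 56.3, 62.8 and 69.0 CPM (log2 1.01, adjusted p = 0.093). Smim26 stood at 16.1, 11.2 and 12.9 CPM against 21.7, 33.0 and 24.4 CPM (log2 0.98, 1.33 with the covariate). Pirb, an inhibitory receptor of myeloid and B cells, stood at 6.52, 9.17 and 15.8 CPM against 20.6, 22.1 and 22.5 CPM (log2 1.04, 0.55 with the covariate). The small GTPase gene Rab30 (0.96) and the ubiquitin ligase gene Fbxl14 (0.97) followed. In Pfn1, Ppp1r14b and Fbxl14 the low library was WT replicate 2 and not the WT library lowest in hemoglobin, which was replicate 1 at 625 CPM.

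Gene groups were then read from lists, each described by its median log2 fold change and the count of members whose groups lay apart. Over all genes tested the median was 0.00, with 9.17% apart upward and 8.19% apart downward. Of 41 lists with at least 4 tested members, 9 had summed levels that lay apart. Of 27 lists with a median of at least 0.1 either way, 19 moved by over 1.5 times when 1 CD8 library was left out, and none changed sign. The list of EBI3 cytokine subunits and related cytokine receptors showed no shared direction. Of 8 genes 6 were tested, with a median of -0.02, and 0 passed. Il12rb1 stood at 65.2, 73.8 and 59.8 CPM in WT and at 58.5, 53.1 and 45.5 CPM in KO (log2 -0.34, adjusted p = 0.286 by edgeR), the only member with groups apart. Il6st, the gp130 chain, stood at 44.7, 35.1 and 59.3 CPM against 56.3, 59.2 and 80.5 CPM (log2 0.50, adjusted p = 0.329 by edgeR). Il27ra, the specific receptor of IL-27, was at 10.5, 8.66 and 5.93 CPM against 6.5, 8.24 and 9.58 CPM, Il6ra had a log2 fold change of 0.20 and Il12rb2 of -0.11. Il27 had no count in any CD8 library and Il12a had 1 to 7 counts. Socs3, a feedback inhibitor of gp130 signalling, was at 22.1, 20.9 and 28.2 CPM in WT and 26.5, 47.4 and 35.4 CPM in KO, and Il10 at 8.03, 8.15 and 10.9 CPM against 13.5, 10.8 and 20.1 CPM. Interferon-stimulated genes, 29 tested, had a median of 0.17, with 2 apart upward (Trim30a and Isg20) and 3 downward, Bst2 among them. That median was -0.07 with the hemoglobin covariate and -0.13 in CD4. It was 0.07 without WT replicate 1 and 0.33 without WT replicate 3.

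Cytosolic ribosomal protein genes were mostly higher in KO, although 1 of them passed the test. Of 79 genes, 65 were above 0, 49 had all KO libraries above all WT libraries and 2 (Rpl13 and Rps6) had them below, against 9.17% and 8.19% of all genes. Their summed level was 94304, 85180 and 90162 CPM in WT and 97488, 97016 and 104493 CPM in KO, so the groups did not overlap, and the ratio of the means was 1.11. As a share of all counts they took 9.59%, 8.71% and 9.26% in WT and 9.89%, 9.83% and 10.5% in KO. Their order in WT was not that of hemoglobin (625, 705 and 1041 CPM), since WT replicate 1 was highest and WT replicate 2 lowest. In KO (1071, 981 and 1466 CPM) replicate 3 was highest in both. The median log2 fold change was 0.20, 0.14 with the hemoglobin covariate and 0.15 to 0.23 with any 1 CD8 library left out, and in CD4 it was 0.01. Rps27 was the member that passed. Rpl36 (log2 0.38) and Rps4x (0.41) did not pass and had groups apart. Most ribosomal protein genes have processed pseudogenes, and how reads with several alignments were treated is not given in the sources used here, so single members are uncertain.

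Other parts of protein production did not share that direction. Of 36 genes of nucleolar ribosome biogenesis, the production line of new ribosomes, 25 were below 0, with 3 apart upward and 8 downward and a median of -0.12 (-0.01 with the hemoglobin covariate). Dkc1, the pseudouridine synthase dyskerin, stood at 795, 882 and 716 CPM in WT and at 610, 667 and 540 CPM in KO (log2 -0.40, adjusted p = 0.052 by edgeR). Nob1, a nuclease that matures the small subunit, was at 14.1, 17.3 and 16.3 CPM against 30.3, 30.4 and 22.0 CPM (log2 0.79). Of 20 aminoacyl-tRNA synthetase genes 17 were below 0 and 3 apart downward, with a median of -0.17, for example Yars (log2 -0.45) and Eprs (-0.31). The 19 translation factors had a median of -0.07, with 1 apart upward and 3 downward, and in that list Eef1a1, the elongation factor that delivers tRNA, stood at 1730, 1075 and 1478 CPM against 2016, 2067 and 2109 CPM (log2 0.53, adjusted p = 0.074 by edgeR). As with Pfn1, WT replicate 2 was the lowest library for Eef1a1. Of 32 spliceosome and hnRNP genes 18 were above 0 and 14 below, 4 were apart upward and 2 downward, and the 2 that fell, Snrpd3 and Alyref, are those described above.

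Cell cycle genes were mostly lower in KO, and none passed the test. Of 32 S phase genes 29 were below 0, 11 were apart downward and 0 upward, and the median was -0.20. Their summed level was 4520, 4451 and 3959 CPM in WT and 3708, 3943 and 3354 CPM in KO, which did not overlap, although WT replicate 3 and KO replicate 2 were close. Lig1, the replicative DNA ligase, stood at 738, 776 and 581 CPM against 513, 567 and 432 CPM (log2 -0.47, adjusted p = 0.059 by edgeR). Tk1, a thymidine kinase, stood at 143, 140 and 114 CPM against 105, 111 and 84.3 CPM (log2 -0.40). Of 32 genes of G2 and mitosis 27 were below 0, 6 were apart downward and 1 upward (median -0.23), with Mki67 at 308, 288 and 232 CPM against 204, 230 and 194 CPM and Cenpe at 228, 209 and 153 CPM against 152, 152 and 129 CPM. Of 47 tested histone genes 41 were below 0 and 6 apart (median -0.25). Hemoglobin was 625, 705 and 1041 CPM in WT and 1071, 981 and 1466 CPM in KO, and the medians with it as a covariate were -0.02, 0.12 and -0.07 for the 3 lists. In CD4, where hemoglobin differed the other way, they were 0.18, 0.19 and 0.08. With 1 CD8 library left out the S phase median ran from -0.26 to -0.16. The G2 median was -0.13 without WT replicate 1 and -0.35 without KO replicate 2, and the histone median was -0.17 without WT replicate 2 and -0.43 without KO replicate 1.

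Of genes of the T cell receptor and CD3 complex, with nearby signalling proteins, all 15 tested had a log2 fold change below 0. None passed the test and 1 was apart downward (8.19% of all genes were). The median was -0.31, and -0.15 without KO replicate 3. The sum was 2973, 3067 and 2293 CPM in WT and 2407, 2488 and 1807 CPM in KO, so that WT replicate 3 lay below KO replicates 1 and 2. Trac, the constant region of the alpha chain, stood at 302, 350 and 240 CPM against 243, 246 and 131 CPM (log2 -0.53, adjusted p = 0.233 by edgeR), and Trbc2 at 664, 677 and 491 CPM against 471, 565 and 442 CPM. With the hemoglobin covariate the median of the 15 was 0.13, and in CD4 it was 0.30. Fewer T cells in the sample and less of a transcript per T cell cannot be told apart in bulk RNA. An added ratio, chosen after seeing the data, divided each list's sum by the sum of these 15 genes. On that scale the S phase genes had ratios of 1.52, 1.45 and 1.73 in WT against 1.54, 1.58 and 1.86 in KO, a log2 difference of the means of 0.08 in place of -0.23. The ribosomal protein genes stood at 31.7, 27.8 and 39.3 against 40.5, 39.0 and 57.8, which overlapped, a log2 difference of 0.47 in place of 0.15. All 40 other lists were above 0 on that scale, against 14 of 40 on summed CPM. The 15 genes had the lowest log2 difference of summed CPM of the 41 lists (-0.31). Division by their sum therefore raises the other lists by construction, so signs on that scale are no result about those lists. Separations on that scale carry the same limit. The cytotoxic granule genes, whose sums overlapped, lay apart per T cell receptor level, at 1.12, 0.858 and 1.24 in WT and 1.33, 1.51 and 1.92 in KO. The cytokines and chemokines did so too, at 0.444, 0.403 and 0.433 against 0.445, 0.541 and 0.531.

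Activation and effector genes gave mixed differences. Of 20 activation factors and AP-1 genes Jund fell and no other passed, with 1 apart upward and 5 downward (9.17% and 8.19% of all genes were). Their median was -0.10, and 0.04 with the hemoglobin covariate. Their sum, Jund included, was 2208, 2364 and 2240 CPM in WT and 2130, 2151 and 2009 CPM in KO, which did not overlap. Jun stood at 63.2, 70.3 and 89.5 CPM in WT and at 102, 90.1 and 114 CPM in KO (log2 0.46, adjusted p = 0.123 by edgeR), opposite to Jund, and the orphan nuclear receptor gene Nr4a3 at 110, 120 and 75.6 CPM against 73.7, 73.7 and 56.0 CPM (log2 -0.59). Of 14 genes of NF-kappaB 7 were on each side of 0, with 2 apart each way. Of 14 cytotoxic granule genes 8 were above 0 and 3 apart upward, with a median of 0.02 (0.30 with the hemoglobin covariate). Gzma, granzyme A, was at 65.7, 67.7 and 67.7 CPM in WT and at 55.8, 158 and 122 CPM in KO, so that KO replicate 1 lay with WT. The chemokine gene Ccl3 had that pattern too, at 21.6, 25 and 21.3 CPM against 15.7, 46.9 and 46.5 CPM. Srgn, the proteoglycan of the granules, was apart at 301, 224 and 289 CPM against 303, 348 and 359 CPM (log2 0.31). Tbx21, the factor T-bet, was apart on the other side at 48.2, 49.4 and 38.1 CPM against 29.8, 36.6 and 25.4 CPM (log2 -0.56, adjusted p = 0.219 by edgeR). Hemoglobin beside these values was 625, 705 and 1041 CPM in WT and 1071, 981 and 1466 CPM in KO.

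Of 12 genes of inhibitory receptors and Tox 9 were below 0 and 4 apart downward, with a median of -0.32 (-0.04 with the covariate, -0.02 in CD4). Their sum was 480, 473 and 402 CPM in WT and 396, 379 and 362 CPM in KO, which did not overlap. Tox, a factor of T cell exhaustion, stood at 12, 20.4 and 7.42 CPM against 5.96, 7.73 and 2.87 CPM (log2 -1.27, adjusted p = 0.106 by edgeR). The inhibitory receptor gene Ctla4 stood at 70.8, 58.6 and 47.5 CPM against 34.7, 44.3 and 29.7 CPM (log2 -0.70, adjusted p = 0.150 by edgeR). Of 10 genes of the CD8 lineage 8 were below 0 and 1 apart downward, with a median of -0.23 (0.08 with the covariate, -0.39 without WT replicate 3). In it the log2 fold change of Cd8a was -0.38 (adjusted p = 0.175 by edgeR) and that of Cd8b1 -0.27. The IL-2 and STAT5 list had a median of -0.20 (0.08 with the covariate) with 1 of 13 apart downward, and in it Socs2 stood at 87.3, 78.9 and 50.9 CPM against 48.2, 51.0 and 23.5 CPM. Of 14 naive and memory genes 9 were above 0 and 1 was apart each way, with Klf2 at 207, 237 and 351 CPM against 367, 314 and 431 CPM and Il7r on the other side at 259, 239 and 167 CPM against 171, 185 and 104 CPM. Both Klf2 and Il7r placed WT replicate 3 among the KO libraries, as hemoglobin did.

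The medians of the metabolic lists lay below 0, their sums overlapped and none of their members passed the test. Their shares of members apart downward were above the 8.19% of all genes, and those apart upward were below 9.17%. Of 27 glycolysis and hypoxia genes 23 were below 0, 2 were apart upward and 3 downward (median -0.21, -0.01 with the hemoglobin covariate). Of 30 sterol and fatty acid synthesis genes 24 were below 0, 1 was apart upward and 5 downward (median -0.25, 0.07 with the covariate, -0.16 without KO replicate 3). Lss, lanosterol synthase, stood at 83.3, 92.2 and 61.3 CPM in WT and at 55.8, 51.0 and 50.8 CPM in KO (log2 -0.59, adjusted p = 0.066 by edgeR). Slc2a3, a glucose transporter gene, had a log2 fold change of -0.49. An entry named Aldoa, a glycolytic enzyme gene, is listed at 0 in every CD8 library of the deposited table. The 27 symbols of the list matched 28 entries, so the 0 need not hold for every entry of that name. Amino acid transport and ATF4 response genes had a median of -0.33 over 27 genes, 20 of them below 0, with 1 apart upward and 3 downward. That median was 0.08 with the covariate and -0.14 without KO replicate 3. Besides Slc7a5 the list held Ddit3, the stress factor CHOP, at 80.3, 83.5 and 65.3 CPM against 60.7, 46.9 and 36.9 CPM (log2 -0.67, adjusted p = 0.072 by edgeR), and Atf4 at 926, 983 and 817 CPM against 716, 788 and 654 CPM (log2 -0.34). These shifts stand beside hemoglobin of 625, 705 and 1041 CPM in WT and 1071, 981 and 1466 CPM in KO.

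In the next lists no member passed. Of 16 chemokine and migration receptor genes 11 were above 0, 3 were apart upward and 1 downward. Their median was 0.29, 0.03 with the hemoglobin covariate, 0.45 without WT replicate 3 and 0.20 without WT replicate 1. The sum was 946, 975 and 1060 CPM in WT and 1101, 1074 and 1162 CPM in KO, which lay apart. Ccr1 stood at 5.52, 9.67 and 9.39 CPM in WT and at 13.5, 18 and 20.6 CPM in KO (log2 1.09, adjusted p = 0.102 by edgeR), while Ccr4 lay on the other side at 36.6, 35.6 and 29.7 CPM against 21.7, 20.6 and 22.5 CPM (log2 -0.65). The 15 genes of MHC class I presentation had a median of -0.12, with 1 apart upward and 3 downward, and in them Psme2, a proteasome activator subunit, stood at 90.8, 85.5 and 113 CPM against 119, 120 and 182 CPM (log2 0.54). The proteasome (47 tested, -0.05), the chaperonin and heat shock genes (21, 0.06) and the p53 and apoptosis genes (17, -0.06) had medians near 0, with 4, 3 and 0 apart upward and 6, 3 and 1 downward. The summed level of the proteasome genes lay apart, at 9331, 9084 and 8604 CPM in WT and 8540, 8560 and 8327 CPM in KO. The cytokines and chemokines (16 tested, 0 apart) had a median of 0.02. It was 0.29 with the hemoglobin covariate, -0.15 without KO replicate 2 and 0.12 without KO replicate 3. Of 18 genes of the unfolded protein response 12 were above 0 and 2 apart upward (median 0.08), with Sec61b, a subunit of the protein translocation channel, at 77.8, 54 and 73.2 CPM against 102, 92.7 and 111 CPM (log2 0.57). Of 8 mitochondrially encoded genes 5 were below 0 and 2 apart downward (median -0.03), and mt-Nd5 stood at 6641, 7807 and 6025 CPM against 5798, 5178 and 5350 CPM (log2 -0.33, adjusted p = 0.227 by edgeR). Hemoglobin in the same order was 625, 705 and 1041 CPM in WT and 1071, 981 and 1466 CPM in KO.

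**Figure D4:**
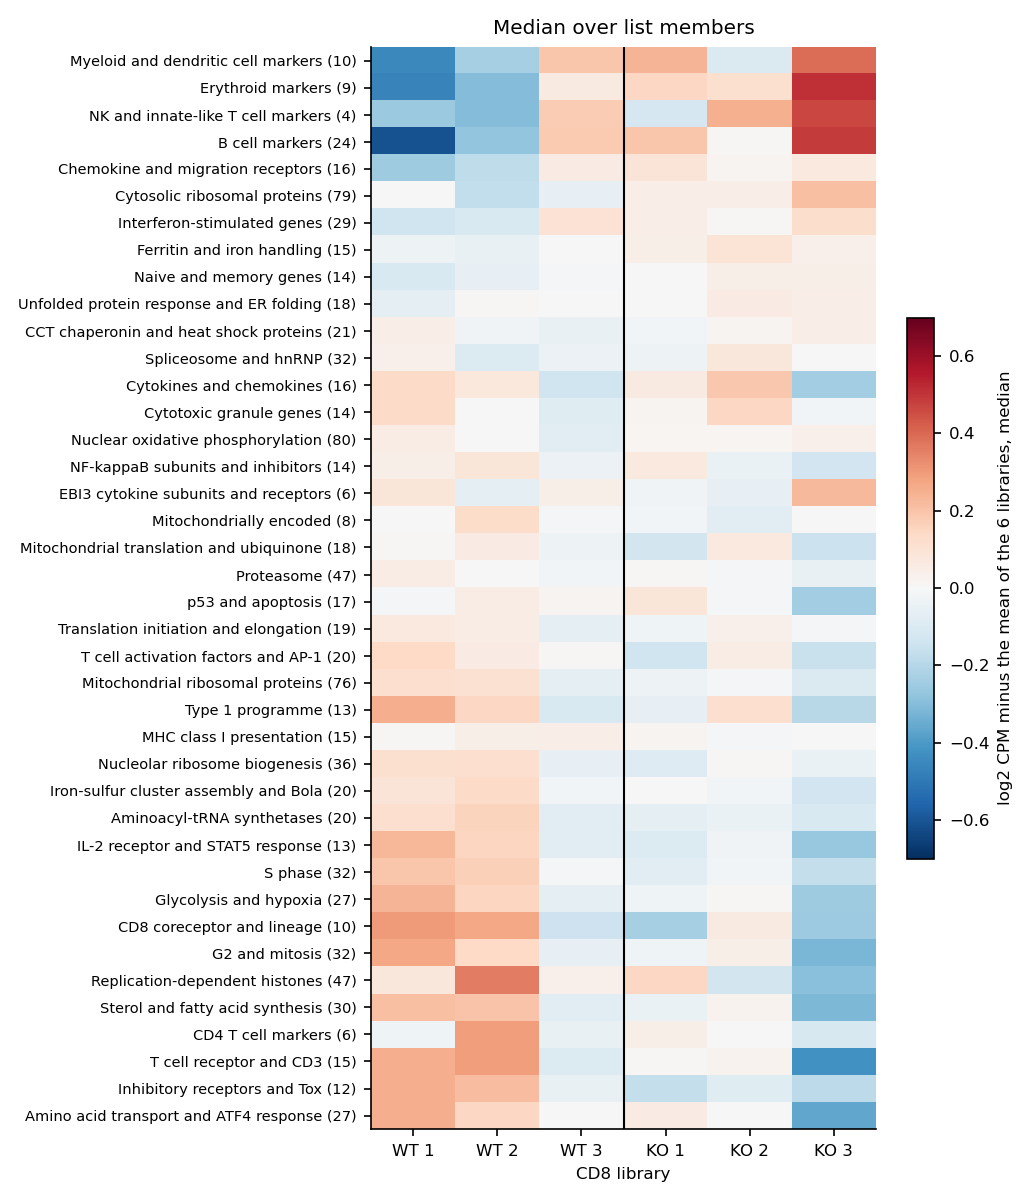
For each gene list (tested members in brackets), the median over members of log2 CPM minus the mean of the 6 CD8 libraries, 1 column per library. Marker rows of B, myeloid, NK and erythroid cells at the top are below 0 in WT replicates 1 and 2 and above 0 in KO replicate 3, and the T cell receptor, cell cycle and metabolic rows near the bottom have the opposite signs in those 3 libraries, with the other 3 between. The ribosomal protein row (79 genes) is highest in KO replicate 3 and lowest in WT replicate 2.

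Genes of the mitochondrion did not move as 1 group. Mitochondrial ribosomal protein genes, 76 tested, had a median of -0.10, with 6 apart upward and 15 downward, and nuclear oxidative phosphorylation genes, 80 tested, had -0.01, with 15 apart upward and 4 downward. Mrps25 stood at 101, 113 and 93.9 CPM in WT and at 76.9, 80.4 and 63.2 CPM in KO (log2 -0.48), and Atp5j of the ATP synthase at 67.3, 40.7 and 60.8 CPM against 83.4, 96.3 and 85.3 CPM (log2 0.65, adjusted p = 0.066 by edgeR). Of 20 genes of iron-sulfur cluster assembly 13 were below 0, 6 were apart downward and 0 upward, the sums lay apart (1179, 1246 and 1156 CPM against 1120, 1115 and 1080.2), and Bola1 fell. Bola3, its relative, stood at 95.4, 93.7 and 105 CPM against 81.8, 91.7 and 69.9 CPM (log2 -0.28, adjusted p = 0.298 by edgeR). Of 18 genes of mitochondrial translation and ubiquinone synthesis 2 fell, Tsfm and Coq7, with a list median of -0.04, 1 apart upward and 3 downward. Of 15 genes of ferritin and iron handling Fth1 rose, 5 were apart upward and 2 downward, and its partner Ftl1, the light chain, stood at 144, 80.5 and 148 CPM against 182, 192 and 231 CPM (log2 0.70, adjusted p = 0.081 by edgeR). Hmox1, heme oxygenase, was on the other side at 17.6, 24.4 and 14.8 CPM against 14.6, 10.3 and 9.10 CPM (log2 -0.74), and Tfrc, the transferrin receptor, had -0.30. Hemoglobin was 625, 705 and 1041 CPM in WT and 1071, 981 and 1466 CPM in KO.

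Markers of other cell types were counted in these sorted and cultured CD8 samples. The medians of the B cell, myeloid, NK and erythroid lists lay above 0 and that of the CD4 T cell list below, with 0 members past edgeR's test. Of 25 B cell markers 24 were tested and 23 were above 0 (median 0.46, 7 at an unadjusted p under 0.05), with 0 apart and 0 at zero in all libraries. The median was 0.29 without WT replicate 1 and 0.69 without WT replicate 3. Their sum was 7266 to 12170 CPM in WT (7266, 8786 and 12170) and 10962 to 14925 CPM in KO (12414, 10962 and 14925), which overlapped through WT replicate 3. Pax5, the factor of B cell identity, stood at 111, 116 and 173 CPM against 178, 165 and 223 CPM (log2 0.51, adjusted p = 0.194 by edgeR). Of 27 myeloid and dendritic cell markers 10 were tested and 9 were above 0, 2 apart upward and 1 downward (median 0.50, 0.23 without KO replicate 3), with a sum of 125, 126 and 175 CPM against 204, 180 and 227 CPM and Xcr1 at zero. Cst3, cystatin C, stood at 62.2, 44.3 and 65.3 CPM against 81.3, 92.7 and 90.1 CPM (log2 0.62, adjusted p = 0.066 by edgeR). Of 12 markers of NK and innate-like T cells 4 were tested, 0 apart (median 0.46, sum 101 to 127 CPM in WT, 113 to 207 in KO, Klra4 at zero). Of 16 erythroid markers 9 were tested, all above 0 and 4 apart upward (median 0.47, sum 749 to 1166 CPM in WT, 1128 to 1613 in KO). Hba-a1 and Hba-a2 (log2 0.71 and 0.74) lay apart, while Hbb-bs (0.47) and Hbb-bt (0.46) overlapped through WT replicate 3. The list holds hemoglobin genes, so its sum (749 CPM in WT replicate 1) is not independent of summed hemoglobin (625 CPM in that library). Of 8 CD4 T cell markers 6 were tested (median -0.25), and of 8 platelet markers none passed the filter, with Clec1b and Tubb1 at zero. With the hemoglobin covariate the B cell and myeloid medians were -0.10 and -0.05, and in CD4 they were -0.40 and -0.43. The part of these cells in the differences above was not tested.

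**Figure D5:**
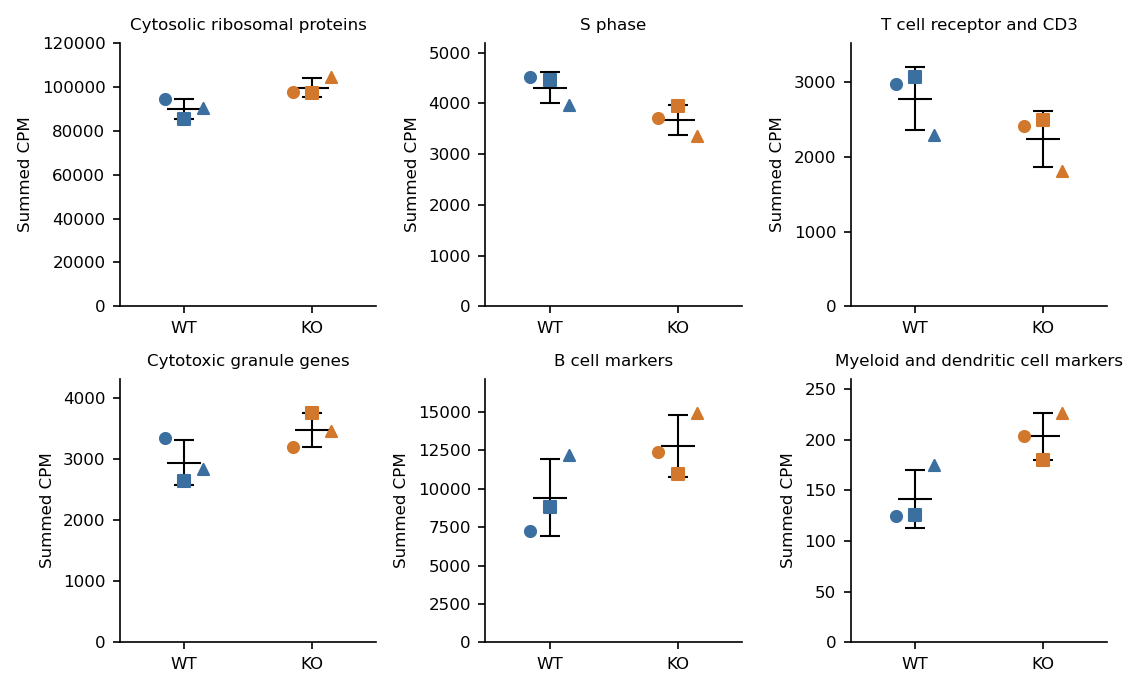
Summed CPM of 6 gene lists in the WT (blue) and KO (orange) CD8 libraries, with the mean and SD of each group (n = 3) and each axis from 0; the shape gives the replicate. The groups lie apart for ribosomal protein, S phase and myeloid genes and overlap for T cell receptor, cytotoxic and B cell genes, where WT replicate 3 or KO replicate 1 crosses over.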

How the data were processed

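The table deposited by the authors holds raw counts of 55487 Ensembl genes in 18 libraries. The tools named in the submitters' processing notes are STAR 2.5.3a, featureCounts, Subread 2.0.0, UMI-tools 1.0.0, cutadapt 2.10 and FastQC, and the build is GRCm38 (mm10). Per the labels' protocols the libraries were QuantSeq 3′ FWD with unique molecular identifiers. Annotation release, strand setting and the treatment of reads with several alignments are, in the sources used here, not given. Names and positions came from a GENCODE annotation of GRCm38, in which 55227 genes matched, and 260 had no symbol.

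The analysis used edgeR 4.0.16 under R 4.3.3: filterByExpr with a minimum count of 10, TMM scaling, robust glmQLFit on 6 group means over 18 libraries (12 residual degrees of freedom, common dispersion 0.00977), glmQLFTest and Benjamini-Hochberg adjustment over 12693 genes at 0.05. The script was tested on simulated data, drawn as independent libraries with the same dispersion for all genes. The planted changes were larger than those of most called genes, so the simulation is no check of the calls. Principal components used log2 CPM with a prior count of 2. Alternatives used limma 3.58.1 and DESeq2 1.42.0, other scalings and filters, hemoglobin as a covariate, and left-out libraries.

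The comparison, the gene lists and the motifs were chosen with earlier results of these data known. Named are Ebi3, Cd8a, Cd8b1, Cd4, Foxp3, the hemoglobin genes, genes past the threshold, genes overlapping a called gene and all of the EBI3 list. Up to 4 members of lowest p per list are named too. So are the 10 largest differences each way with groups apart at a mean log2 CPM of at least 4. Other genes named (Cd3e, Trac as identity markers, Rpl13, Rps6, Bola3, Igf2r, Aldoa, markers at zero) were chosen after their values were seen. A few genes and 1 list that the rule covers are not reported here.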

Additional observations from a re-analysis of the deposited data

How the results depend on the processing

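The count of 21 genes moved by more than 1.5 times under most alternatives. It was 0 with only the 6 CD8 libraries, with the 12 CD8 and CD4 libraries and in a test against a fold change of 1.5, and 1 with alike Treg pairs summed. It was 4 with the hemoglobin covariate, 11 with a minimum count of 30, 35 with RLE scaling, 72 with DESeq2 and 447 with no filter on low counts. The 4 held 0 of the 21, and the 72 held 13 of them. DESeq2 gave the other 8, Bola1 among them, no adjusted p. It was 20 with limma-voom, of which 17 were among the 21, and 21 without the hemoglobin genes. Leaving out 1 CD8 library gave 0 to 646. With the replicate number as a block it was 807 in the 6 CD8 libraries and 118 in all 18. Same-numbered WT and KO libraries had correlations of their deviations of 0.00, 0.06 and 0.31. The last was the highest of any WT and KO pair, while replicate 1 of WT correlated best with KO replicate 2. With 3 libraries per group these correlations cannot settle whether the numbers pair the samples, which is not known. The difference between CD8 and CD4 had 0 calls under RLE, with the covariate and with 12 libraries, and 0 to 859 with 1 library left out. Among alternatives chosen after seeing the data, it had 602 with no filter on low counts (15 of the 21 among them) and 192 with the replicate block in 18 libraries (11 of the 21), and 0 with a minimum count of 30, with limma-voom, against a fold of 1.5, with Treg pairs summed and without the hemoglobin genes. The hemoglobin difference ran from 0.41 to 0.80 (log2) with 1 CD8 library left out. Of 779 recomputed list medians 58 moved by more than the spread of the library medians within groups, and of 27 lists with a median of at least 0.1 either way 19 moved by over 1.5 times without 1 CD8 library. The cause of these changes was not tested. Genes near 3 counts in a library, such as Bicd1 and Gm22063, are limited by depth.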

Other observations

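By annotated type, processed pseudogenes and small nucleolar RNAs had other counts than protein-coding genes. Of 370 processed pseudogenes tested, 65 (17.6%) had all KO libraries above all WT libraries and 7 below, with a median log2 fold change of 0.24. Of 85 small nucleolar RNA genes 2 were apart upward and 16 (18.8%) downward, with a median of -0.24. For 10815 protein-coding genes the shares were 8.997% and 8.68% and the median 0.00. Hemoglobin was 625, 705 and 1041 CPM in WT and 1071, 981 and 1466 CPM in KO. Processed pseudogenes are copies of genes such as those of ribosomal proteins, and small nucleolar RNAs lie inside host genes. Whether their counts are independent of those genes was not tested.

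No gene near Ebi3 passed the adjusted test. Within 5 Mb on either side of Ebi3 on chromosome 17, 55 genes were tested, and 0 were called by edgeR. Of the 55, 16 had an unadjusted p under 0.05, a larger share than the 16.3% of all genes tested. In the window 8 were apart upward and 8 downward, also larger shares than the 9.17% and 8.19% of all genes. The median log2 fold change was -0.04, and the excess was not tested.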
